A study of Danio rerio with 2 samples.

Results

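The genes described here mark the passage of a neural cell into a differentiated, synapse-bearing neuron in zebrafish (Danio rerio) embryos. The 9 genes were set by name: elavl3, elavl4, sncb, snap25a, snap25b, gad1b, gad2, gap43 and gng3. Spots were taken where the array name was the gene's symbol or an older zebrafish symbol of it. This gave 18 spots for 8 of the 9 genes, out of 35976 genes and unnamed transcripts on the arrays; 3 of the 8 were found under an older name (sncb as zgc:66343, gad1b as gad1 and gad2 as zgc:112198). No spot was found under a name of gap43, which encodes a growth cone protein, and it has no value below.

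Ovulated oocytes had received 10.3 ng per embryo of MO2-ers2a, a morpholino (an antisense oligonucleotide) that stops the mRNA of estrogen receptor beta2 from being translated, or the same dose of a control morpholino, MO-control. Embryos were fixed at 8 hours post fertilization (hpf), during gastrulation, or at 48 hpf, in the hatching period. At each time 1 2-colour Agilent array carried RNA of MO2-ers2a embryos in Cy5 and of MO-control embryos in Cy3. The sources used here name no strain and give neither how many embryos were pooled for an RNA sample nor whether the times shared a clutch. No allele or transgene is named in the labels, and every embryo, controls included, had been injected with a morpholino. With 1 array per time and no dye swap, no value has a replicate error, and sizes are given without any test or p-value.

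Neurons pass on signals by releasing transmitter from vesicles. The vesicle is pulled onto the plasma membrane by a bundle of SNARE proteins, one of which is SNAP-25. ELAV-like RNA-binding proteins are among the earliest marks of a cell that has left the neural progenitor state, and elavl3 is widely used in zebrafish to label new neurons. Transcripts of the release machinery follow as axons grow and synapses form, a process that is under way in the zebrafish brain and spinal cord by the later of the sampled times and has not begun at gastrulation.

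Of 43839 spots that were not controls, 19465 at 8 hpf and 21008 at 48 hpf were above the background limit in both channels. The limit is the mean plus 2.6 SD of the signals of 153 negative control spots, after subtraction of the local background. A log2 ratio could be computed for 15356 named genes or unnamed transcripts at the earlier time and 16630 at the later. The pooled SD between spots of one gene was 0.32 and 0.24 on the log2 scale, which is spread within an array and may include differences between probes. Of the 2 spots of esr2a, the gene now carrying the name of the targeted receptor, neither was above the limit in both channels at either time. A block of translation need not lower the transcript, so these spots do not check the labels.

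At 8 hpf the neuronal transcripts were at or near background in both kinds of embryo. Net signals, meaning the spot's signal minus its local background, ran over the 18 spots from -9 to 441 in MO2-ers2a embryos (median 12.5, limit 24.4) and from 25 to 112.5 in MO-control embryos (median 38.5, limit 59.9). Only 5 spots passed the limit in Cy5 and 2 in Cy3. At 48 hpf the same spots ran from 31 to 6449 in MO2-ers2a embryos (median 675) and from 60.5 to 6402.5 in MO-control embryos (median 634.25), and 18 and 17 of them passed. Brightness also depends on the probe, so spots of different genes are not ranked against each other as transcript amounts.

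**Figure D1:**
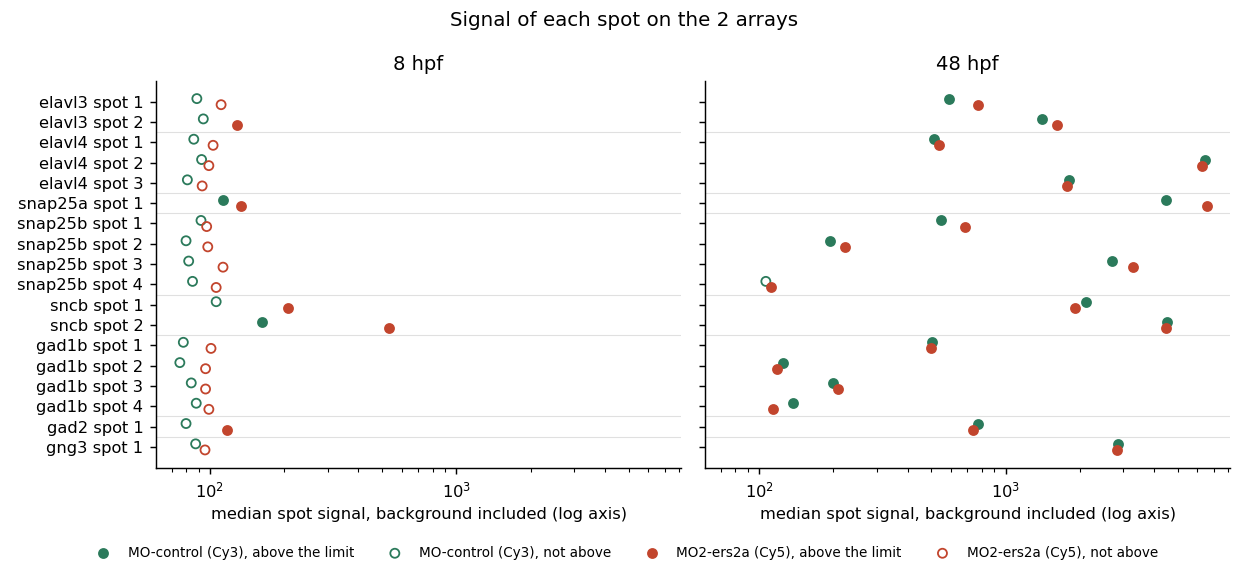
Signal of each of the 18 spots, background included, on a log axis, at 8 hpf (left) and 48 hpf (right); green is MO-control (Cy3), red is MO2-ers2a (Cy5), and open circles were not above the background limit. At 8 hpf all but 5 Cy5 and 2 Cy3 values are open, with spot 2 of sncb farthest to the right, and at 48 hpf 1 value is open.

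The transcripts of the RNA-binding proteins were near background at 8 hpf and well past it at 48 hpf. For elavl3, the net signals of its 2 spots in MO-control embryos were 41.5 and 43.5 at 8 hpf, both under the limit, and 540 and 1349.5 at 48 hpf. In MO2-ers2a embryos they were 19 and 42 at 8 hpf, the second past the limit of 24.4, and 696 and 1534 at 48 hpf. For elavl4, a paralog expressed in differentiating neurons, the 3 spots in MO-control embryos went from 35.5, 46.5 and 33 to 462, 6402.5 and 1751. Those of MO2-ers2a embryos went from 4, 12 and -9 to 453, 6189.5 and 1687. Every spot of both genes was brighter at 48 hpf than at 8 hpf in both kinds of embryo.

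The genes of vesicle fusion were also brighter at 48 hpf on every spot. The 1 spot of snap25a, one of a pair of zebrafish SNAP-25 genes, went from 60.5, just past the limit of 59.9, to 4405 in MO-control embryos and from 42 to 6449 in MO2-ers2a embryos. Its paralog snap25b had 4 spots, all under the limit at 8 hpf in both channels. At 48 hpf their net signals were 500, 137, 2651 and 60.5 in MO-control embryos, the last one not above the limit, and 601, 145, 3200.5 and 36 in MO2-ers2a embryos. The spots of snap25b thus differed more from each other than any of them did between the kinds of embryo, and whether they carry different probes cannot be read from these files.

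beta-Synuclein, encoded by sncb, is a presynaptic protein, and its gene was the exception at 8 hpf. Its 2 spots read 121 and 441 in MO2-ers2a embryos, both past the limit, and 54.5 and 112.5 in MO-control embryos, where only the second passed. Those signals are before normalization, and Cy5 was the brighter dye on the median measured spot. At 48 hpf they read 1832.5 and 4400 in MO2-ers2a embryos and 2075.5 and 4470.5 in MO-control embryos.

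The genes of GABA synthesis, gad1b and gad2, encode the decarboxylases that make this inhibitory transmitter from glutamate. All 4 spots of gad1b were under the limit at 8 hpf in both channels, at 28 to 39 in MO-control embryos and 8 to 17 in MO2-ers2a embryos. At 48 hpf they read 450.5, 74, 148.5 and 82 in MO-control embryos and 416.5, 41, 126.5 and 31 in MO2-ers2a embryos. The 1 spot of gad2 went from 25 to 728.5 in MO-control embryos and from 29 to 654 in MO2-ers2a embryos. gng3, a G protein gamma subunit gene of neurons, went on its 1 spot from 35.5 to 2794 in MO-control embryos and from 7.5 to 2760 in MO2-ers2a embryos.

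Levels were compared between the times within a dye, after loess within each array and scaling of the arrays to a common distribution of mean intensity. Where the 8 hpf signal was under the limit, the lowest signal past it (or the spot's own, if higher) took its place, and the change is then a lower bound. In MO-control embryos the 8 genes had a median change of 4.13 on the log2 scale, against 0.05 over 17050 genes and transcripts measured in Cy3 at 48 hpf. The level of 6 of the 8 was at least 8-fold higher at 48 hpf, a size passed by 5.61% of those 17050; the other two were snap25b and gad1b. With each channel scaled to its 75th percentile the number was 4 of 8 (3.92% of all), since elavl3 and gad2 came to 2.90 and 2.68 on the log2 scale. With a limit of 5 SD the number was 5 of 8 (6.03% of all), with gad2 at 2.80. snap25a, with both levels measured, was 65.0-fold higher. Of the genes with a bound on every spot, gng3 was at least 45.3-fold, elavl4 at least 26.2-fold, elavl3 at least 11.7-fold and gad2 at least 9.50-fold higher, as the median over spots under this scaling. The lowest spot of elavl3 gave a bound of 2.80 and that of elavl4 one of 2.54 on the log2 scale. With 75th percentile scaling gng3 came to 4.56, elavl4 to 3.90 and snap25a to 5.21. sncb had 1 spot with both levels measured, at 5.12 on the log2 scale, and 1 with a bound of 4.76.

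Most spots of snap25b and gad1b were dim at both times. Their gene values were at least 6.42-fold and at least 1.48-fold higher, but their brightest spots gave at least 5.43 and at least 2.50 on the log2 scale. In MO2-ers2a embryos the median change was 3.30, and 5 of 8 were at least 8-fold higher (background 4.5%). The limits differ between the dyes, so bounds in Cy5 and Cy3 are not set against each other. With both levels measured in both dyes, snap25a changed by 6.02 in MO-control and 5.93 in MO2-ers2a embryos, and the second spot of sncb by 5.12 and 3.34.

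**Figure D2:**
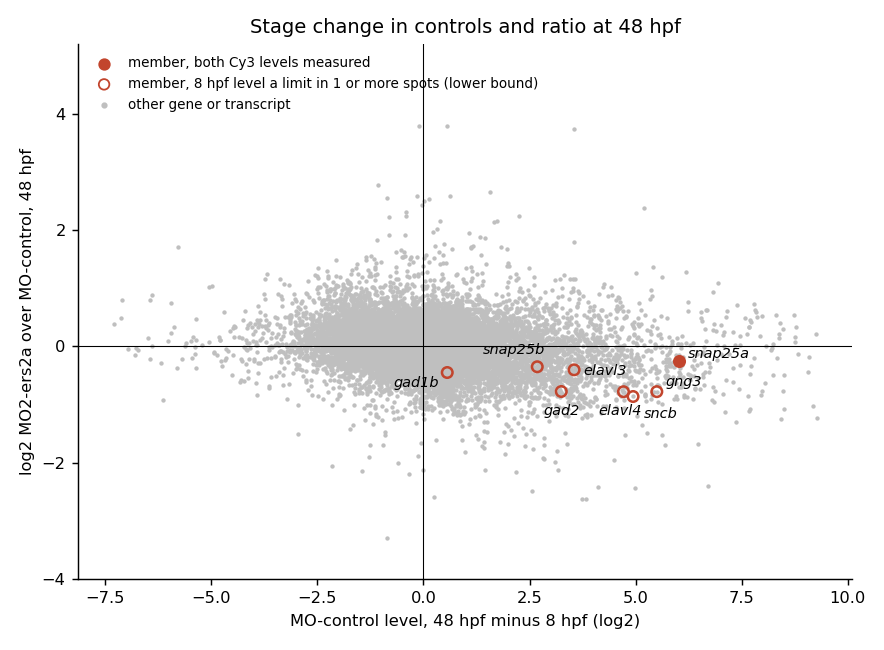
Change of the MO-control level from 8 to 48 hpf (x, log2) against the log2 ratio of MO2-ers2a over MO-control at 48 hpf (y); each grey point is a gene or transcript and each red circle a neuronal gene, open where the 8 hpf level of at least 1 spot is a limit. All 8 lie right of 0 and below 0, from 0.56 (gad1b) to 6.02 (snap25a) on x and from -0.86 (sncb) to -0.26 (snap25a) on y.

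At 48 hpf the 8 genes stood lower in MO2-ers2a embryos, relative to all genes measured, and none reached 2-fold. Net signals of elavl4, sncb, gng3 and gad2 were nearly equal in the dyes or somewhat lower in Cy5, and those of gad1b were lower in Cy5. On measured spots those of elavl3, snap25a and snap25b were higher in Cy5. The median spot measured in both channels was brighter in Cy5 by 0.59 on the log2 scale before normalization. Loess subtracts a shift that varies with brightness, so spots with equal raw signals, or somewhat brighter in Cy5, can come out below 0. The spot of snap25a, at 6449 in Cy5 and 4405 in Cy3, came out at -0.26. The second spot of snap25b, at 145 and 137, came out at -0.18. After loess the ratios ran from -0.86 to -0.26 with a median of -0.62, against -0.02 over all 16630. All 8 lay below 0, as did 52.1% of all. The number at least 1.5-fold lower was 4 of 8 (background 6.86%; this size was chosen after the values were seen), and the number at least 2-fold lower was 0 of 8 (background 1.25%). The MO2-ers2a level of these 4 was 54.9% to 58.3% of the control. At least 1.5-fold lower were 4 of 8 with the authors' ratios (12.6% of all) and 5 of 8 with spike-in scaling (18.2% of all). The number was also 5 of 8 with centring on measured spots (11.6% of all) and with plain background subtraction (11.1% of all). With centring on all spots, 0 of 8 were at least 1.5-fold lower (2.98% of all). That setting centres each array on the median of its spots in place of loess. There 5 of the 8 lay below 0, against 20.1% of all genes, and the median of all genes moved to 0.37. The genes above 0 were elavl3 (0.09), snap25a (0.35) and snap25b (0.08). The members' median was then -0.22, and its difference from that of all genes -0.59 (-0.60 after loess). MO2-ers2a RNA was in Cy5 on both arrays, so a dye effect of a probe cannot be told apart from an effect of the morpholino. Fewer neurons and less RNA per neuron cannot be told apart either, since RNA came from whole embryos.

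At 48 hpf 4 genes stood close together at the lower end. sncb stood lowest at -0.86, with its 2 spots at -0.91 and -0.81, which is 1.82-fold lower, and 2.12% of all measured genes were at or under its value. elavl4 stood at -0.78, with 3 spots from -0.86 to -0.59, and gng3 and gad2, on 1 spot each, also at -0.78. These 4 values span 0.086, less than the pooled SD of 0.24 between spots of one gene, so they do not differ beyond that spread. The 4 were taken as the lowest in order, so part of their closeness follows from that choice. The SD over all measured members was 0.24 as well, no wider than between spots of one gene. The split into lower and higher genes is thus a description of order, and it was not tested.

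Higher than these stood gad1b at -0.45 (4 spots, -0.66 to -0.26), elavl3 at -0.41 (2 spots, -0.54 and -0.28), snap25b at -0.35 (3 spots, -0.50 to -0.18) and snap25a at -0.26 on 1 spot. For snap25a, 24.0% of all measured genes were at or under its value. Both SNAP-25 genes were thus at the higher end. The place of gad1b depended on the processing: without loess it was the second lowest of the 8, at -0.68 with centring on measured spots, -0.84 with spike-in scaling and -0.29 with centring on all spots. Single spots of the lower and the higher genes also overlapped, with elavl4 at -0.59 and gad1b at -0.66. Both GABA enzyme genes were below 0, gad2 by more than gad1b. All 17 spots measured in both channels were below 0.

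The authors' deposited table of log ratios gave the same direction for all 8 genes. In the authors' deposited table, taken over the same spots except 1 of gad1b that had no ratio there, and turned from log10 to log2, the gene values ran from -0.95 (sncb) to -0.25 (snap25a) with a median of -0.70. A single spot of gad1b stood above 0 in the authors' deposited table, at 0.30. It was the dimmest of that gene in Cy3, with a net signal of 74 against a limit of 70.1.

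**Figure D3:**
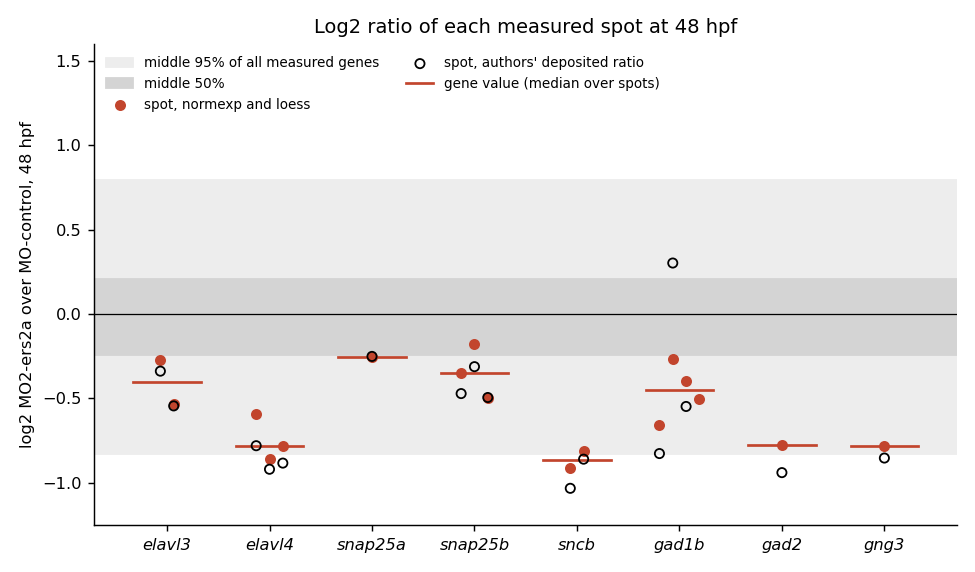
Log2 ratio of MO2-ers2a over MO-control at 48 hpf for each spot measured in both channels (filled: normexp and loess; open: the authors' deposited ratio), with the gene value as a line and the middle 50% (-0.24 to 0.21) and 95% (-0.83 to 0.79) of all measured genes shaded. All 17 filled points are below 0, and the gene value of sncb lies under the shaded band.

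Spots of one gene differed in brightness and in ratio. In 4 of the 5 genes with at least 2 measured spots at 48 hpf, the brightest spot had the lowest ratio, as in 50.8% of all 3446 such genes. That share was 54.6% with 2 measured spots (as for elavl3 and sncb), 40% with 3 (elavl4 and snap25b) and 28.2% with 4 (gad1b). For elavl4 the spot at a Cy3 net signal of 6402.5 gave -0.86 and that at 462 gave -0.59. For snap25b the spot at 2651 gave -0.50 and that at 137 gave -0.18. For gad1b the spot at 450.5 gave -0.66 and that at 74 gave -0.26, but the order was not even, with -0.40 at 148.5 and -0.50 at 82. sncb went the other way, with -0.81 at 4470.5 and -0.91 at 2075.5. The offset of 50 added to both signals draws ratios of dim spots towards 0. With plain background subtraction and no offset the dim spots of elavl4, snap25b and gad1b stood at -0.66, -0.22 and -0.50 and the bright ones at -0.87, -0.51 and -0.73. Loess, used there too, shifts a spot by an amount that depends on its brightness. Before it, net signals of elavl4 were nearly equal in the dyes on its bright and dim spots. For snap25b the bright spot stood higher, at 3200.5 in Cy5 against 2651 in Cy3, beside 145 against 137. For gad1b it also did, at 416.5 against 450.5, beside 41 against 74. For elavl3 the bright spot stood lower. The part of loess in the order of spots was not tested.

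At 8 hpf a ratio could be had for 2 of the 8 genes. snap25a stood at -0.16, with both net signals close to their limits. sncb stood at 0.97 on its brighter spot, 441 in MO2-ers2a against 112.5 in MO-control embryos, just under 2-fold. With spike-in scaling these values were -1.27 for snap25a and 0.37 for sncb. Neither reached 2-fold in the processing as reported, a size that 4.57% of all genes passed in either direction. With loess after plain subtraction or an offset of 16, sncb did pass it, at 1.19 and 1.12. In the authors' deposited table the same spots stood at -0.80 for snap25a and 1.30 for sncb. The other sncb spot, measured in Cy5 only, gave a bound of 1.46-fold higher in MO2-ers2a embryos, which equals its own ratio after loess because its Cy3 level lay above the lowest one past the limit. For elavl3 on 1 spot the bound was 1.04-fold, and for gad2, also measured in Cy5 only, none above 1 could be given. With spike-in scaling none of these 3 spots had a bound above 1.

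sncb thus stood above 0 at 8 hpf and below 0 at 48 hpf. The log2 ratio at 48 hpf minus that at 8 hpf was -1.83, and a difference of -1 or lower was found in 2.73% of the 13179 genes and transcripts measured at both times. It rests on 1 spot at 8 hpf and has no replicate. sncb was not alone among the genes listed below. Many of them also went from above 0 to below 0, among them gng2 (difference -1.89), atp6v0cb (-1.74), rtn1b (-1.49) and stmn1a (-1.24). Others went from below to above, such as ascl1a (1.76). For snap25a the difference was -0.09, but it was above 0 under 5 of 9 alternatives and reached 1.08 with spike-in scaling, so its sign is not settled.

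Other genes of vesicle release behaved much like the 8 at 48 hpf. A list of SNARE, vesicle and release genes had 39 members on the arrays, 28 of them measured. Of these 28, 27 lay below 0 (52.1% of all genes), 12 were at least 1.5-fold lower (6.86%) and 1 at least 2-fold lower (1.25%). The list's median was -0.57, or -0.15 when the arrays were centred on all spots. The lowest was dnajc5aa at -1.05, a cysteine string protein gene whose product chaperones SNARE proteins on the vesicle. Next was nsfa at -0.91, which encodes the ATPase that takes used SNARE bundles apart. The gene vamp2, whose product is the vesicle's own SNARE and a partner of SNAP-25 in the bundle, stood at -0.69. The calcium sensor gene syt1a stood at -0.76. At the other end were vamp1a at 0.03 and syt4 at -0.02. At 8 hpf, 16 of the list were measured, with a median of -0.30. Of these, 1 was at least 2-fold higher, atp6v0cb, a proton pump subunit gene, at 1.12 (4.57% of all genes were past 2-fold either way).

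Further genes of neuron differentiation, axon growth and the cytoskeleton, taken as 1 list, had 61 measured members at 48 hpf, of 67 on the arrays. Of these 61, 55 were below 0 (52.1% of all genes) and 14 at least 1.5-fold lower (6.86%). The number at least 2-fold lower was 0 (1.25%), as was the number at least 2-fold higher (1.27%). The median was -0.37, or 0.09 when centred on all spots. The lowest were stmn1b at -0.88, a stathmin gene, and the splicing factor gene rbfox1 at -0.82. The highest were slit2, an axon guidance ligand gene, at 0.28 and uchl1 at 0.15. At 8 hpf the median over 41 genes was -0.03. Of these 41, 2 were at least 2-fold higher, rtn1b at 1.06 and stmn1a at 1.03 (4.57% of all genes were past 2-fold either way).

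Transmitter genes had 15 measured members of 24 on the arrays, 11 of them below 0 (52.1% of all genes). The median was -0.23, or 0.17 when centred on all spots. The lowest were the GABA transporter genes slc6a1b at -0.96 and slc6a1a at -0.86, and the vesicular transporter gene for GABA and glycine, slc32a1, stood at -0.63. Other genes of GABA metabolism stood above 0, with abat of this list at 0.21 and gad3, a relative of gad1b and gad2, at 0.18. The vesicular glutamate transporter genes of the list were not measured, so GABA and glutamate transport cannot be compared. Low values were not particular to GABA genes, since sncb stood at -0.86 and nsfa of the vesicle list at -0.91. The highest were ache, the acetylcholinesterase gene, at 0.40 and tph1b at 0.25. Of 7 genes of the list measured at 8 hpf, 1 was at least 2-fold lower, the glycine transporter gene slc6a9 at -1.05 (4.57% of all genes were past 2-fold either way).

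Genes of the same families as the 8 were listed too, most of them not restricted to neurons. Their median was 0.01 over 22 measured members, with 11 below 0 (52.1% of all genes). At least 1.5-fold lower (6.86% of all) were 3 of them, gng13b (-0.90), gngt2a (-0.67) and gng2 (-0.62). Among relatives of elavl3, elavl1a stood at -0.01 and elavl2 at 0.03. Among relatives of the SNAP-25 genes, snap23.1 stood at 0.04, snap23.2 at 0.36 and snap47 at 0.37. The value of snap29, 0.45, lies midway between 2 spots that point in opposite directions, at -0.71 and 1.61. Synuclein genes stood at -0.28 for sncgb and 0.36 for sncga, and the gamma subunit genes ran from -0.90 for gng13b to 0.40 for gng12a; gng13b had 2 spots far apart, at -1.43 and -0.36. Of 14 genes of these families measured at 8 hpf, 3 were at least 2-fold higher, snap47 at 1.49, gng2 at 1.26 and snap29 at 1.08. Past 2-fold either way at that time were 4.57% of all genes. No test of the difference between family members was possible.

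Markers of other cells were read from the same array. Neural progenitor markers had a median of 0.43 at 48 hpf, with 17 of 25 above 0 and 8 below (52.1% of all genes were below). Of these markers notch1a at 1.29 and sox19b at 1.25 were at least 2-fold higher (background 1.27%). The lowest were pax6b at -0.58 and neurod4 at -0.43. Retinal neuron markers had a median of -0.78, with 13 of 17 below 0 (52.1% of all genes) and 6 at least 2-fold lower (1.25%). The lowest was crx at -2.41, while gnat2 at 1.70 and rx1 at 1.19 were at least 2-fold higher (1.27%), each on 1 measured spot of 2. Glial markers stood at -0.02 over 13 genes, from olig2 at -0.58 to id1 at 1.52. Skeletal muscle markers stood at 0.24 over 17, from casq1a at -0.19 to tcap at 2.65. Cell cycle genes stood at -0.03 over 19, from cdkn1bb at -0.62 to gmnn at 1.08. Centring on all spots moved these medians to 0.92, -0.38, 0.46, 0.91 and 0.58 in the same order. The part of these cell types in the values of the 8 genes was not tested.

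**Figure D4:**
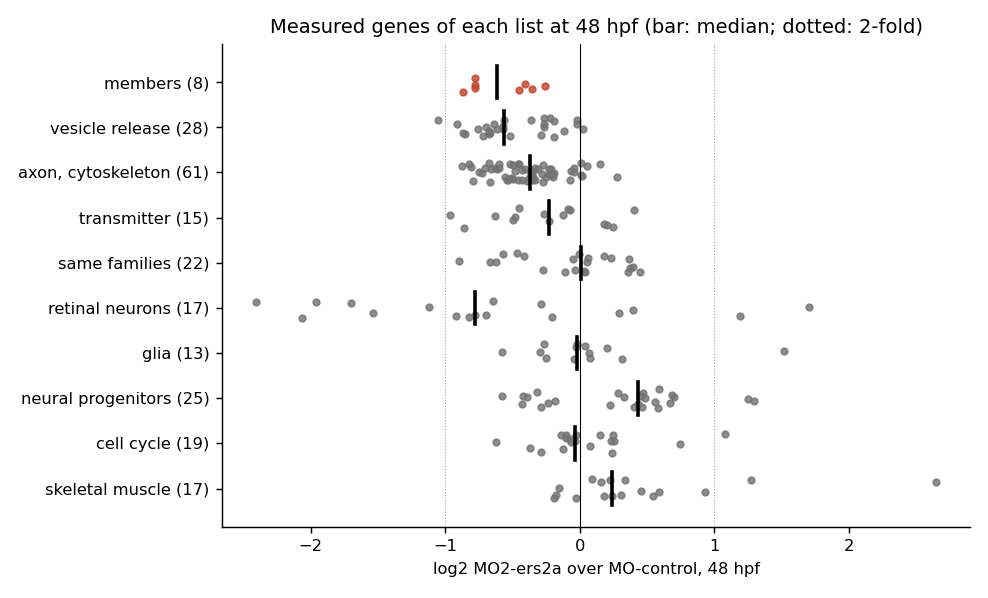
Log2 ratio at 48 hpf of every measured gene of each list (points, with vertical scatter only for legibility) and the list's median (bar); numbers in parentheses count genes and dotted lines mark 2-fold. The bars of the 8 neuronal genes and of the vesicle release, axon, transmitter and retinal neuron lists lie left of 0, those of the same families and of glia close to 0, and those of neural progenitors and skeletal muscle right of it. The axon list also holds other neuron differentiation genes.

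The named genes nearest to the 8 in their pattern were found by the distance from the members' median in the ratio at 48 hpf and the MO-control change between the times, over 9675 named genes. They were elmo2 at a distance of 0.03, nptnb, which encodes the cell adhesion protein neuroplastin, at 0.07, b3gat2 at 0.12, slc43a2a, an amino acid transporter gene, at 0.13 and elovl4a, which encodes an elongase of very long fatty acids, at 0.14. Their ratios at 48 hpf ran from -0.62 (b3gat2) to -0.48 (elovl4a), and their MO-control changes from 4.01 (b3gat2) to 4.16 (elovl4a). The pattern consists of 2 values from 2 arrays, and the members' median ratio lies in a gap where none of the 8 stands. The MO-control changes of b3gat2 and of 1 of the 2 spots of elmo2 are lower bounds, as are those of at least 1 spot in 7 of the 8 genes, so the distances are between computed values and not between measured changes.

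**Figure D5:**
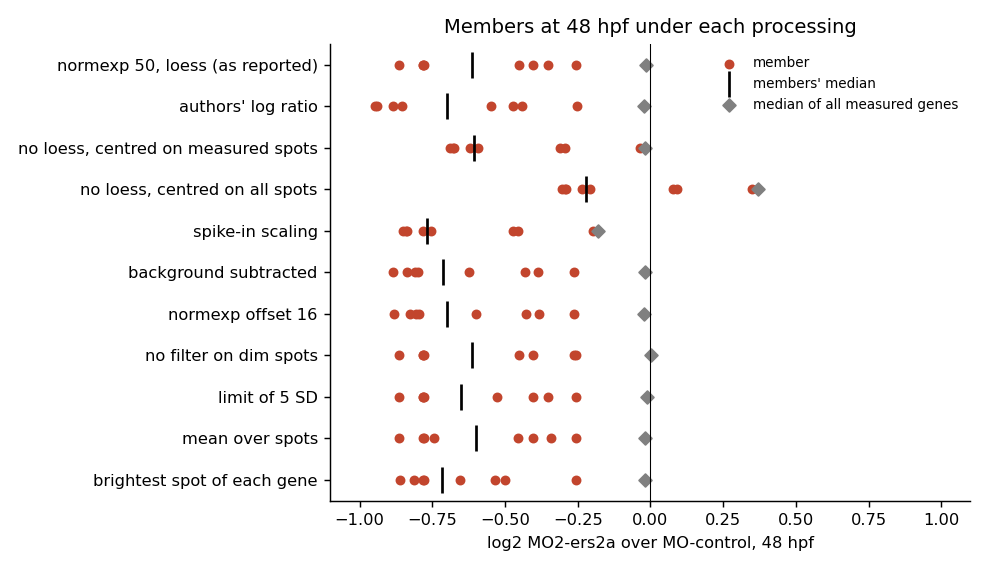
Log2 ratio at 48 hpf of the 8 genes (red), their median (bar) and the median of all measured genes (grey diamond) under the processing as reported and 10 alternatives. The members' median lies between -0.77 and -0.60 under all but centring on all spots, where it is -0.22 beside a median of all genes of 0.37.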

How the data were processed

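Total RNA of whole embryos was hybridised to 2 2-colour Agilent arrays, 1 per time. The deposited scanner files hold the intensity of each spot, as median signal and median local background per channel, per the file headers. The deposited series matrix holds the authors' log10 ratio of Cy5 over Cy3: on bright spots it rose with the raw log2 ratio with slopes of 0.299 and 0.306, its column medians were 0, and spots at exactly 0 (36.8% and 34.7%) were taken as not measured. Its dye normalization is not given in the sources used here; Agilent Feature Extraction was used, per the submitters' processing notes.

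Background was corrected by normexp with an offset of 50 (limma 3.58.1, R 4.3.3), and ratios were normalized by loess with control spots at weight 0. Both steps were checked on simulated data. The results of that check are not given here, and it is not taken to cover dim spots near the background limit. For the stage changes, levels were also scaled between arrays by Aquantile, which that check did not cover. Each gene was given the median of its measured spots. Python 3.11.15, numpy 2.4.6, pandas 2.3.3 and matplotlib 3.10.9 served for the rest. Older array names were matched through RefSeq's gene table for GRCz12tu, from which names alone were taken.

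The members, lists and the detection limit were chosen with earlier results of these data known. A further gene set by name, and 1 of the vesicle list, are not reported here and are in no count of the 8 or of that list. Named outside the 8 are the 2 highest and 2 lowest of each list at 48 hpf, genes past 2-fold, and the 5 of nearest pattern. The genes syt1a, vamp2, slc32a1, abat, gad3, elavl1a, elavl2, snap23.1, snap23.2, sncgb and sncga were added after their values were seen. Not every gene past the rule is named. Alternatives covered background, normalization, filter and summary. No genome sequence was used. The number of arrays limits the precision.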

Additional observations from a re-analysis of the deposited data

Results flagged for a closer look

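sncb, the beta-synuclein gene, stood above 0 at 8 hpf (0.97) and below 0 at 48 hpf (-0.86), a difference of -1.829 between the times with 1 array each. The difference was not tested. Under the 10 alternatives and the processing as reported, the value at 8 hpf ran from 0.37 (spike-in scaling) to 1.46 (centring on all spots), that at 48 hpf from -0.95 to -0.29, and the difference from -2.24 to -1.21. The change of sign was not particular to sncb, as many genes of the other lists showed it too, gng2, atp6v0cb and rtn1b among them.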

How the results depend on the processing

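At 48 hpf the members' median kept its sign and the count past 2-fold stayed at 0 under all 10 alternatives; the median moved beyond the spread between spots only with centring on all spots (-0.22). At 8 hpf the median over 2 genes (0.40) was 0.075 with centring on measured spots, 0.97 with a limit of 5 SD (1 gene), -0.45 with spike-in scaling and -0.027 without a filter (8 genes, mostly under the limit). The count past 2-fold at 8 hpf, 0 as reported, was 1 with the authors' ratios, centring on all spots, plain subtraction and an offset of 16 (sncb, higher) and 1 with spike-in scaling (snap25a, lower, -1.27). The median difference between the times (-0.96, 2 genes) was -0.43 with centring on measured spots, -0.61 with centring on all spots, -0.066 with spike-in scaling, -0.53 without a filter and -1.83 with 5 SD. The median stage change was 5.56 with subtraction and 5.28 from the brightest spots in MO-control, and 5.14 with spike-in scaling and 4.37 from the brightest spots in MO2-ers2a embryos. Spike-in scaling, which takes the spike mixes as symmetric in the dyes, put the median of all genes at -0.55 at 8 hpf and -0.18 at 48 hpf. Of 80 single-gene values at 48 hpf under alternatives, 72 moved by less than the spread. Centring on all spots, the brightest-spot summary and spike-in scaling of stage changes were chosen after seeing the data. No paired analysis was possible because there is 1 array per time. Signal over background limits the 8 hpf values.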
